A study of Rattus norvegicus with 12 samples.

Results

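Cholesterol synthesis and its control were followed in rat liver through 27 genes, out of 35561 distinct gene names or accessions on the array. The genes were chosen by name: 7 enzymes from acetyl-CoA to farnesyl diphosphate, 11 enzymes from squalene to cholesterol, 4 genes of the sterol sensor and 5 genes that move or store cholesterol. A further gene of the list, Npc1, was not found by name. Where a gene had several probes, the brightest one was read (37 probes in all, with 19 genes on a single probe). All 27 genes were well above background in both RNAs of every comparison.

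Fischer 344 rats aged 12 weeks gave the livers. Both sexes were studied intact and after hypophysectomy, each as pools of 3 to 4 livers. A pool of 4 livers from hypophysectomised males had received a single injection of growth hormone (GH) and mixed livers collected 30, 60 and 90 min after it, and a pool of 5 had received 2 injections, 3 or 4 h apart. The operation takes out the pituitary, so it removes not GH alone but also the hormones that drive the thyroid, the adrenals and the gonads. The 6 comparisons were read directly on 12 Agilent oligonucleotide arrays in 2 colours, 2 dye-swapped arrays a comparison, with separate pools on the 2 arrays except that each GH pool served both. Each ratio below is a log2 ratio of the RNA named before "over" to the other, from n = 2 arrays a comparison. Its ± SE comes from a linear model fitted over all 12 arrays. A gene read on all arrays therefore has the same SE in all 6 comparisons. The SE does not measure the spread of the 2 arrays of a comparison. Differences between comparisons, also given ± SE, come from the same model and rest on the arrays of the comparisons they join. A gene was called at an adjusted p under 0.05 over all probes tested in that comparison.

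The liver makes cholesterol from acetyl-CoA through mevalonate, isoprenoid diphosphates, squalene and lanosterol. When sterols in the endoplasmic reticulum are low, SCAP carries the transcription factor SREBP-2, encoded by Srebf2, to the Golgi, where it is cut and released to the nucleus to activate these genes. The INSIG proteins hold SCAP back when sterols are high, and Insig1 is itself a target of SREBP.

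Per colour and array, 58.4% to 71.1% of probes were well above background. Precision is limited by how few arrays there are. All 11 hepatocyte markers were well above background in every RNA. In bulk liver RNA, fewer cells of a type and less RNA per cell cannot be told apart. The 2 arrays gave ratios that correlated over all probes tested at 0.75 to 0.87 in the comparisons of intact with hypophysectomised or male with female rats, except hypophysectomised males over hypophysectomised females (0.08), and at 0.62 and 0.80 in the GH comparisons. With median centring in place of loess, 0 of the 27 genes were called in any comparison, against 370 or fewer probes called in each; the cause was not tested. That setting moved the median of all probes by over 0.1 in several comparisons, from -0.13 in intact males over intact females to 0.10 in hypophysectomised over intact males.

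Hypophysectomy in females lowered most of the pathway. Of the 27 genes, 17 fell and 2 rose, against 18.5% of all tested probes that fell, 17.9% that rose and 36.3% called in all. The median over the 27 genes was -0.74, and over all tested probes 0.00. The falls covered 6 of 7 mevalonate enzymes and 8 of 11 sterol enzymes, and 7 genes fell at least 2-fold.

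Among the mevalonate enzymes, Mvd, which decarboxylates mevalonate diphosphate, had ratios of -1.66 and -1.07 on the 2 arrays. Its fitted ratio was -1.36 ± 0.12 (2.57-fold lower, adjusted p = 0.000102). Fdps, the farnesyl diphosphate synthase, had -2.04 and -1.08. Both arrays lay well below 0 for both genes, and array 1 gave the larger fall. The fitted ratio of Fdps was -1.56 ± 0.16 (2.94-fold lower, adjusted p = 0.000235). Acat2, which joins acetyl-CoA at the head of the pathway, had -0.93 ± 0.11. The HMG-CoA synthase Hmgcs1 had -0.62 ± 0.16, the phosphomevalonate kinase Pmvk -0.78 ± 0.10 and the isopentenyl diphosphate isomerase Idi1 -0.79 ± 0.19. The mevalonate kinase Mvk was the member of this group that was not called, with arrays of opposite sign (-0.52 and 0.36).

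Among the sterol enzymes, Tm7sf2, a sterol C14 reductase, had the lowest ratio: -2.41 and -1.72 on the arrays, fitted at -2.06 ± 0.15 (4.17-fold lower, adjusted p = 4.72e-05). Dhcr7, which makes cholesterol in the last step of one branch, had -1.96 and -1.42. Its fitted ratio was -1.69 ± 0.16 (3.23-fold lower, adjusted p = 0.000181). Each gene was below -1 on both arrays. Sc5d, the lathosterol desaturase, had -1.19 and -1.47, fitted at -1.33 ± 0.05 (adjusted p = 1.99e-06). Cyp51, the lanosterol demethylase, fell by 1.19 ± 0.10. Smaller falls were found for the lanosterol synthase Lss (-0.88 ± 0.09), the squalene epoxidase Sqle (-0.74 ± 0.15), the sterol dehydrogenase Nsdhl (-0.79 ± 0.15) and the sterol isomerase Ebp (-0.64 ± 0.08). Not called were the squalene synthase Fdft1 (-0.30 ± 0.12), the sterol methyl oxidase Sc4mol (-0.11 ± 0.12) and the ketosteroid reductase Hsd17b7 (-0.43 ± 0.20).

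Insig1 had the lowest ratio of the 27 genes in females, -2.55 and -2.02 on the arrays. Its fitted ratio was -2.29 ± 0.33 (4.88-fold lower, adjusted p = 0.00127). Its 3 dimmer probes gave -2.24, -1.99 and -2.13, so all 4 probes agreed in direction and size. Srebf2 went the other way, with 0.23 and 0.27 on the arrays (0.25 ± 0.06, adjusted p = 0.0129). Its dimmer probe was not tested there. Insig2 (0.14 ± 0.24) and the escort protein gene Scap (-0.01 ± 0.06) were not called. Of the genes that handle cholesterol, the sterol carrier Stard4 fell (-0.74 ± 0.18), as did Lcat, which esterifies cholesterol in plasma lipoproteins (-0.64 ± 0.08). Scarb1, the receptor that takes cholesterol from high-density lipoprotein, rose by 0.54 ± 0.09. The cholesterol-esterifying enzyme Soat2 (-0.15 ± 0.05) and the efflux transporter Abca1 (-0.01 ± 0.13) were not called.

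**Figure D1:**
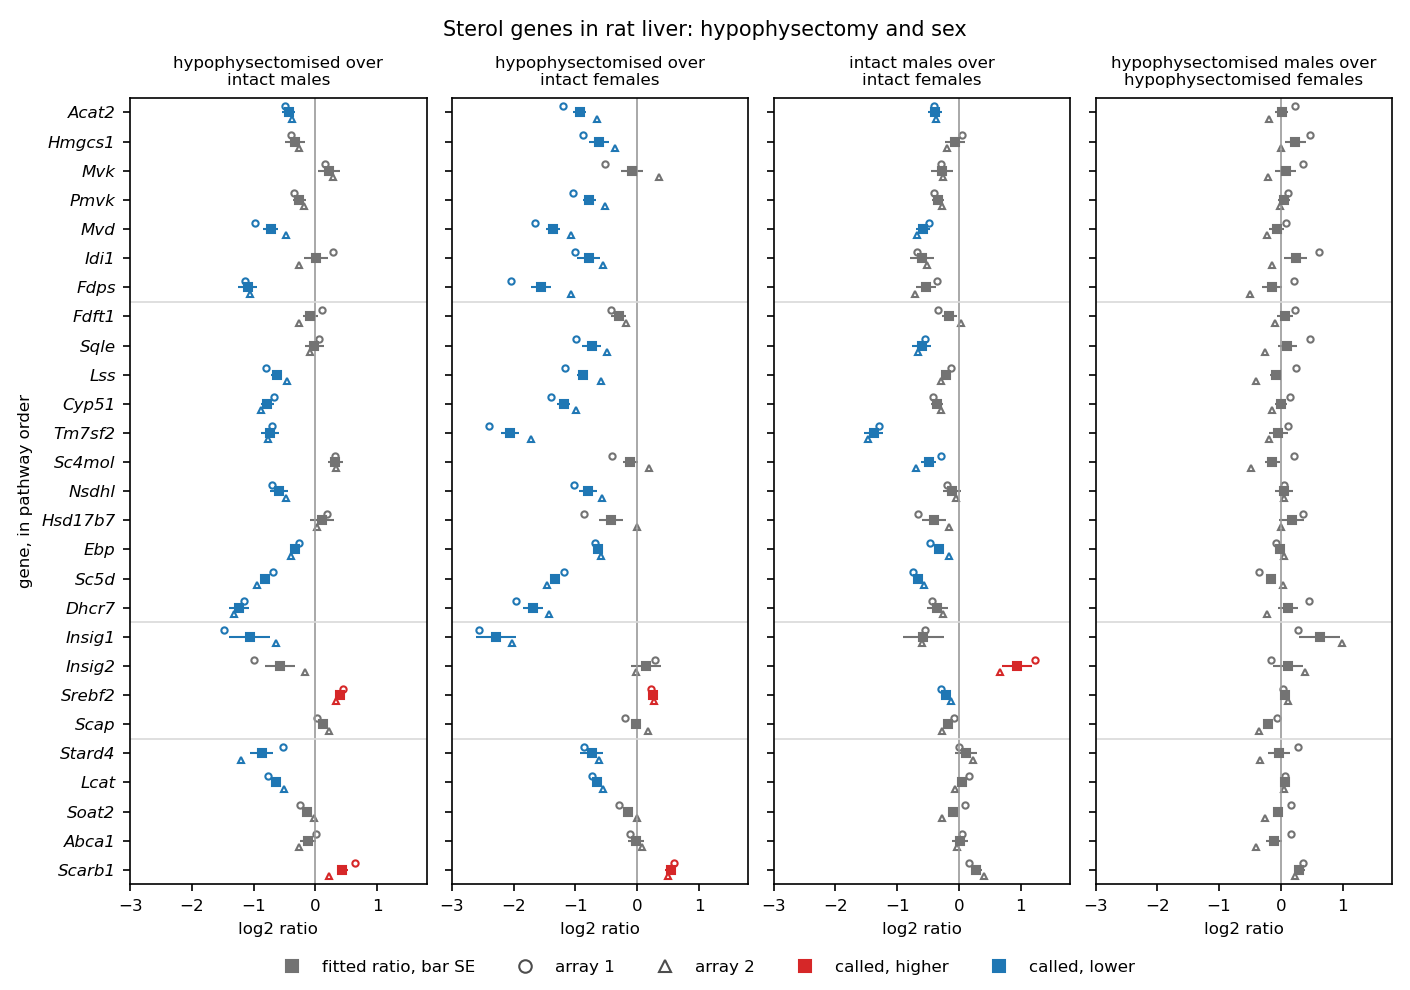
Log2 ratios (horizontal axis) of the 27 genes in pathway order in the 4 comparisons without GH. Squares are fitted ratios with their SE, circles and triangles the arrays of replicate 1 and 2, and colour marks called genes. Falls fill the female panel (17 genes) and, less densely, the male one (13 genes), while in hypophysectomised males over hypophysectomised females 0 genes were called.

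The 250 bases before the annotated start were also read, whether a gene had fallen or not. The RefSeq promoter table for the GRCr8 assembly holds 21 of the 27 genes (Sc4mol under its current symbol Msmo1). Fdft1, Sqle, Pmvk, Stard4, Soat2 and Scarb1 had no match in it. The 4 genes with the lowest ratios in hypophysectomised over intact females are shown 5′ to 3′ on the strand of the gene, because they carry the largest falls. Capitals mark ATTGGC, the inverted form of the box that NF-Y binds with a C added, and CACNCCA, the core of a sterol regulatory element, on either strand. The windows lie at chr4:8057770-8058019, minus strand (Insig1), chr1:212789542-212789791, minus strand (Tm7sf2), chr1:208444184-208444433, plus strand (Dhcr7) and chr2:176804817-176805066, minus strand (Fdps).
Insig1: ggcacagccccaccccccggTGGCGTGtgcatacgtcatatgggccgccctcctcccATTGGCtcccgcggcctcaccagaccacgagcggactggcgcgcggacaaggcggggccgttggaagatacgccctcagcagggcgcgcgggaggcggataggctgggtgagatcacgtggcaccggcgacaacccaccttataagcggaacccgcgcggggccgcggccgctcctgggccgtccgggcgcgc
Tm7sf2: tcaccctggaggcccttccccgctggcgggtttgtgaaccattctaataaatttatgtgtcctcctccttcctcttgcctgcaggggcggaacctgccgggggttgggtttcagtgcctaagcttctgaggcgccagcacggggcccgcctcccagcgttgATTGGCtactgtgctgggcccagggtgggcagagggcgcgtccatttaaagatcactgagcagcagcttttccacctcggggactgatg
Dhcr7: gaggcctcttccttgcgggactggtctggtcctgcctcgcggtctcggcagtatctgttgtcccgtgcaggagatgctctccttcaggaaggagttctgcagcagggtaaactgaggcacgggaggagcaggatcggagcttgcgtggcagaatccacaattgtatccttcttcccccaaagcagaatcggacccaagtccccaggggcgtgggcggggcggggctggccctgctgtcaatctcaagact
Fdps: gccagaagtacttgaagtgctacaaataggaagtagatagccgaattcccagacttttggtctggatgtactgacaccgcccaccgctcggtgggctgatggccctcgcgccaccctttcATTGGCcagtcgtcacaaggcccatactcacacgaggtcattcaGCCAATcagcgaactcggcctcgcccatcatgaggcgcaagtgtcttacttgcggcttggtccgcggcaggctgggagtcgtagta

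Fdps held 2 matches to ATTGGC, Insig1 and Tm7sf2 a single one each, and Dhcr7 none. Insig1 also held CACNCCA. Over all 21 genes, 13 windows (61.9%) held ATTGGC, against 13.0% of 27457 promoters. It was held by 11 of the 15 synthesis enzymes read. Among its holders were Mvk, Sc4mol, Hsd17b7 and Srebf2, which did not fall in females. It was absent from Acat2, Mvd, Cyp51, Dhcr7 and Lcat, which fell, and from Insig2, Scap and Abca1, which did not. A tie between the motif and the falls was not tested. The shorter CCAAT, which ATTGGC contains on the other strand, was in 16 of 21 windows (34.3% of all promoters), and GGGCGG, a GC box, in 17 (32.4%).

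CACNCCA was in 5 windows (23.8%, against 14.4%), and its variant CACCCCA in 3 (5.82%). The longer TCACNCCAC was in 0 of 21 (0.976%). CACGTG, an E-box, was in 4 (5.79%), TTCNNNGAA, the letters a STAT5 dimer can bind, in 1 (7.52%), and TGACGTCA, a cyclic AMP response element, in 0 (1.7%). These 9 motifs were searched on both strands. With the table's full 300 bases, which run past the start, ATTGGC was in 14 of 21 windows against 14.3% of all promoters. A match is a run of letters and not a measured site, and no binding was measured here.

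**Figure D2:**
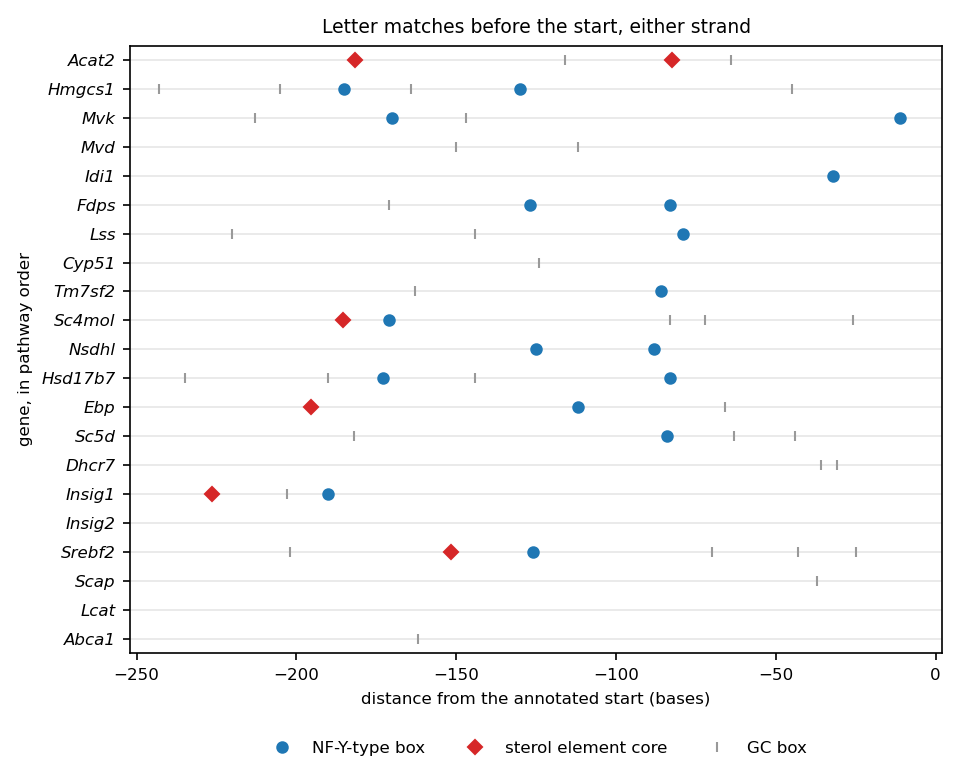
Places of 3 motifs in the windows of the 21 genes, with distance from the annotated start in bases on the horizontal axis and genes in pathway order. Circles mark the NF-Y-type box, found in 13 windows, diamonds the sterol element core, found in 5, and ticks the GC box, found in 17.

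Hypophysectomy in males lowered fewer of the genes, and by less. Of the 27 genes 13 fell and 2 rose, against 18.5% of tested probes that fell, 19% that rose and 37.5% called in all. The median over the 27 genes was -0.33. All 13 that fell had also fallen in females, and 4 fell in females without a call in males (Hmgcs1, Pmvk, Idi1 and Sqle). How many of all tested probes fell in both sexes was not counted, so this overlap has no background beside it. The comparisons in males and in females share no RNA, though they share slides.

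Fdps had -1.14 and -1.06 in males, fitted at -1.10 ± 0.16 (2.14-fold lower, adjusted p = 0.00123). Dhcr7 had -1.15 and -1.32, fitted at -1.24 ± 0.16 (2.36-fold lower, adjusted p = 0.000814). These were, with Insig1, the 3 genes that fell at least 2-fold in males. Insig1 had -1.48 and -0.65, fitted at -1.06 ± 0.33 (adjusted p = 0.0362), so its arrays lay further apart than those of the enzymes. Its other 3 probes gave -0.99, -0.99 and -1.01. Sc5d fell by 0.82 ± 0.05, Cyp51 by 0.78 ± 0.10, Tm7sf2 by 0.74 ± 0.15, Mvd by 0.72 ± 0.12 and Lss by 0.63 ± 0.09. Nsdhl (-0.59 ± 0.15), Acat2 (-0.43 ± 0.11) and Ebp (-0.32 ± 0.08) also fell.

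Idi1 (0.29 and -0.26 on the arrays, fitted at 0.01 ± 0.19) and Sqle (0.06 and -0.10, fitted at -0.02 ± 0.15) lay near 0 in males. Hmgcs1 (-0.33 ± 0.16), Pmvk (-0.26 ± 0.10), Fdft1 (-0.09 ± 0.12), Hsd17b7 (0.11 ± 0.20), Mvk (0.22 ± 0.18) and Sc4mol (0.32 ± 0.12) were not called. Srebf2 rose by 0.39 ± 0.06 and Scarb1 by 0.44 ± 0.09. Stard4 fell by 0.87 ± 0.18 and Lcat by 0.64 ± 0.08, the latter the same size as in females. Insig2 was not called by its brightest probe (-0.58 ± 0.24, adjusted p = 0.095), while its dimmer probe was (-0.70, adjusted p = 0.00574).

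The change with hypophysectomy differed between the sexes for 10 genes, all with a larger fall in females. The difference was taken as the mean of 2 direct estimates, 1 from the ratios within each sex and 1 from the ratios between the sexes, and the 2 differed by at most 0.17 for the 27 genes. Both rest on the same RNAs, and the labels do not say whether on the same pools. Their closeness therefore does not test the sex difference. The fit took the arrays as independent, but deviations of same-numbered arrays correlated between several comparisons. The correlation was 0.86 between hypophysectomised over intact males and hypophysectomised males over hypophysectomised females, which enter the difference with the same sign. The SE and p-values of the difference leave this out and can be too small. Beside the 10 of 27 genes called positive and 0 negative stand 6.48% and 7.01% of all tested probes (13.5% in all). The median over the 27 genes was 0.33, and over all tested probes 0.01.

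Tm7sf2 had the largest difference, 1.55 on slide 2 and 1.12 on slide 3, fitted at 1.33 ± 0.15 (adjusted p = 0.000978). Insig1 had 0.95 and 1.48, fitted at 1.22 ± 0.33 (adjusted p = 0.0475). For these genes both slides gave a difference of about 1 or more. Idi1 had 1.30 and 0.33 (0.82 ± 0.19), Sqle 1.04 and 0.39 (0.71 ± 0.15), and Mvd 0.63 and 0.53 (0.58 ± 0.12). Slide 3 thus gave a far smaller difference than slide 2 for Idi1 and Sqle but not for Mvd. Sc5d had 0.45 and 0.56 (0.50 ± 0.05, adjusted p = 0.000573). Pmvk (0.45 ± 0.10), Acat2 (0.45 ± 0.11), Cyp51 (0.39 ± 0.10) and Ebp (0.31 ± 0.08) complete the 10.

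Within slides, 18 of the 27 genes were positive on both slides and 1, Insig2, was negative on both. Insig2 had -1.34 and -0.21, fitted at -0.77 ± 0.24 (adjusted p = 0.0752), while its dimmer probe had -0.61 (adjusted p = 0.0258). None of the 5 handling genes was called, with fitted differences from -0.14 to 0.03, and 0 of them had an unadjusted p under 0.05. The 10 calls moved with single arrays. Most were lost without either array of intact males over intact females. Most were also lost without replicate 1 of hypophysectomised over intact females, or without replicate 1 of hypophysectomised males over hypophysectomised females. Most were kept without any other single array of these comparisons. With all 4 arrays of replicate 2 left out, only 1 residual degree of freedom remained, so that count is not given. Stard4 then turned from -0.14 ± 0.18, not called, to 0.30. It was -0.58 with the 4 arrays of replicate 1 left out. Sc5d and Tm7sf2 kept their calls in every alternative except median centring. Fitted without the GH arrays the count was 5, and with the replicate number as a block 6, beside 8.47% and 11.6% of all tested probes.

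**Figure D3:**
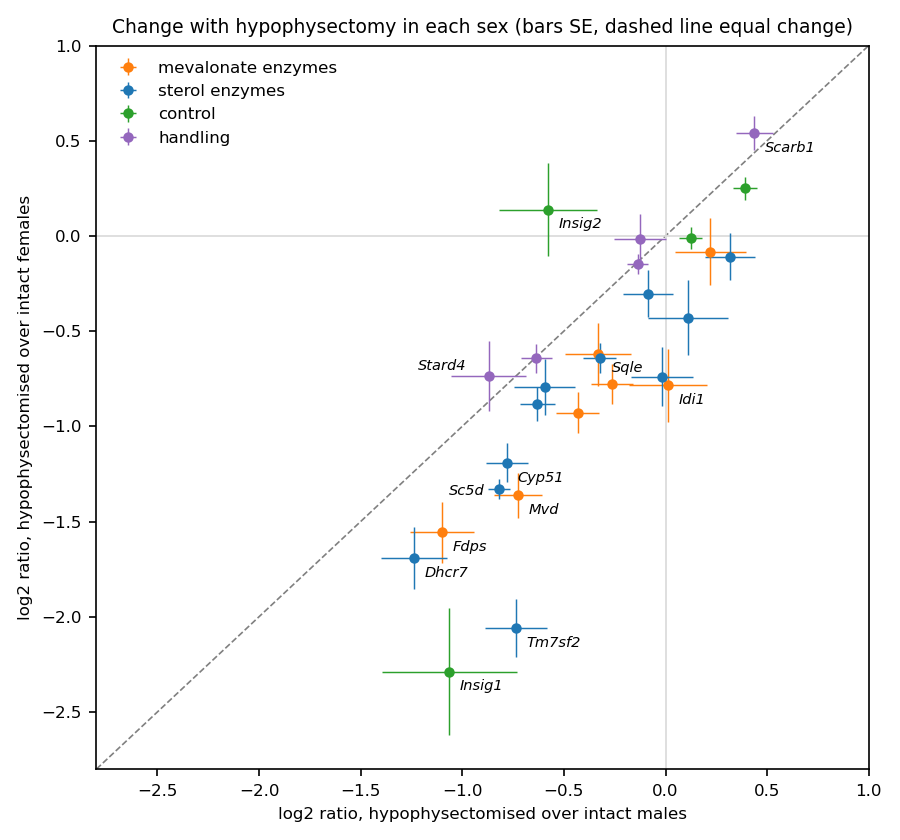
Log2 ratio of hypophysectomised over intact males (horizontal axis) and females (vertical axis) for the 27 genes, bars SE, coloured by role, with a dashed line where both sexes change alike. Of the 27 genes 23 lie below the line, with Tm7sf2 and Insig1 farthest from it, and 21 have the same sign in both sexes. The same counts over all tested probes were not taken.

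**Figure D4:**
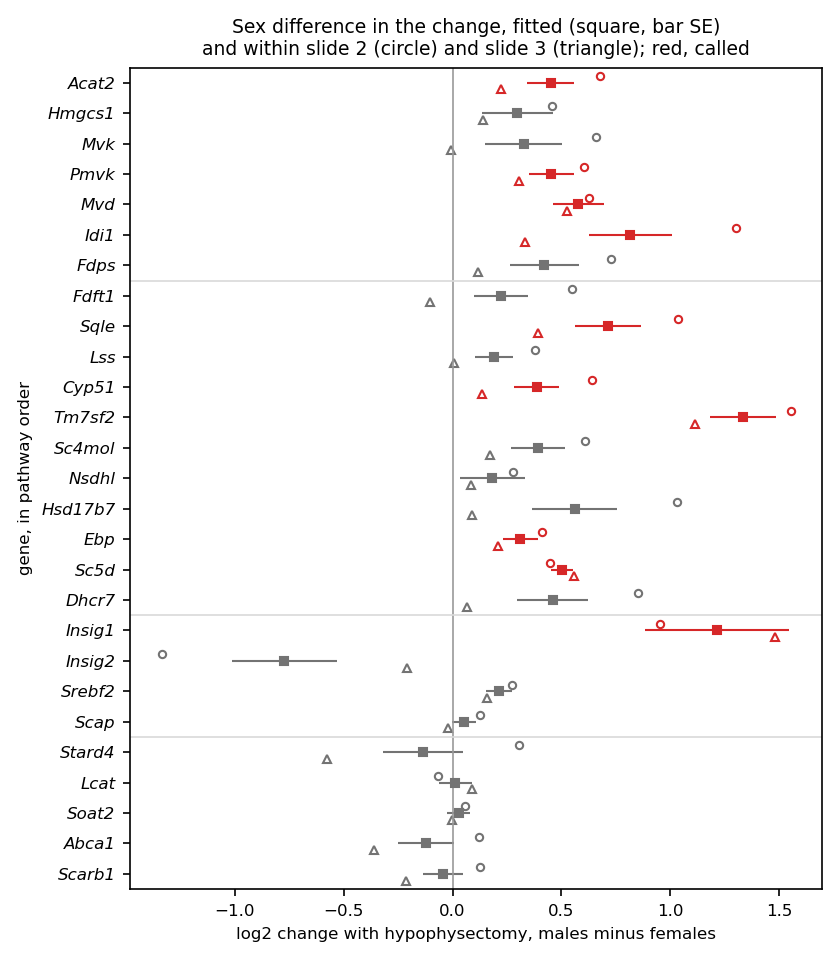
Difference in the log2 change with hypophysectomy, males minus females, for each gene: fitted with its SE (squares), within slide 2 (circles) and within slide 3 (triangles), with called genes in red. The 10 called genes are positive on both slides, and circles lie to the right of triangles for most enzymes.

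In intact rats part of the pathway was lower in males than in females. Of the 27 genes 8 were lower in males and 1 higher, against 7.42% and 8.07% of tested probes (15.5% in all), with a median of -0.32. Tm7sf2 had -1.29 and -1.48 on the arrays, fitted at -1.38 ± 0.15 (2.61-fold lower in males, adjusted p = 0.000585). Sc5d had -0.74 and -0.57, fitted at -0.66 ± 0.05 (adjusted p = 9.2e-05). Both genes were lower in males on both arrays. Sqle (-0.61 ± 0.15), Mvd (-0.58 ± 0.12), Sc4mol (-0.49 ± 0.12), Acat2 (-0.39 ± 0.11), Ebp (-0.32 ± 0.08) and Srebf2 (-0.22 ± 0.06) were also lower. Insig2 was the gene higher in males, with 1.23 and 0.66 on the arrays. Its fitted ratio was 0.94 ± 0.24 (1.92-fold, adjusted p = 0.0337), and its dimmer probe also gave 0.94 (adjusted p = 0.00301). The call of its brightest probe was lost without either array (adjusted p = 0.488 and 0.0777), with the replicate number as a block (0.0585) and without the GH arrays (0.0714), in a range of 0.0113 to 0.907 over its alternatives. Insig1 had -0.58 ± 0.33 and was not called, nor were Fdps (-0.53 ± 0.16, adjusted p = 0.0594), Idi1 (-0.60 ± 0.19) or Cyp51 (-0.36 ± 0.10, adjusted p = 0.0509). The dimmer probes of Fdps (-0.58, adjusted p = 0.0369) and Idi1 (-0.66, adjusted p = 0.0266) were called, and those of Insig1 were not. Most of the 9 calls were lost without either array of this comparison. The count was 3 without the GH arrays, where 11% of all tested probes were called.

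Between hypophysectomised males and hypophysectomised females, 0 of the 27 genes were called by limma, against 0.949% of tested probes (0.53% higher and 0.419% lower), and 3 had an unadjusted p under 0.05 (Scap, Scarb1 and Sc5d). Every alternative run also called 0. Tm7sf2, which was 2.61-fold lower in intact males, had 0.12 and -0.19 on the arrays here (-0.04 ± 0.15). Sc5d had -0.35 and 0.03 (-0.16 ± 0.05), and Insig2 had -0.16 and 0.39 (0.11 ± 0.24). The 2 arrays disagreed in sign for most genes: 23 of 27 were above 0 on array 1 and 18 below 0 on array 2, with the same sign for 7. For 26 of the 27 genes the 95% interval lay within a 2-fold difference either way. Insig1 was the exception, with 0.28 and 0.99 on the arrays and an interval from -0.13 to 1.40 around 0.63.

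The single pool of livers given 1 GH injection had 7 of the 27 genes lower than hypophysectomised males and 1 higher, against 6.79% and 7.49% of tested probes (14.3% in all), with a median of -0.23. Hmgcs1 had -0.58 and -0.97 on the arrays, fitted at -0.78 ± 0.16 (1.71-fold lower, adjusted p = 0.0179). Since each GH group is 1 pool read on both arrays, its values and p-values describe that pool and leave out the spread between treated rats. Scarb1 had -0.37 and -0.66, fitted at -0.51 ± 0.09 (adjusted p = 0.00868). Both were below 0 on both arrays. Sc4mol (-0.53 ± 0.12), Pmvk (-0.47 ± 0.10), Acat2 (-0.39 ± 0.11), Srebf2 (-0.24 ± 0.06) and Scap (-0.22 ± 0.06) were also lower. Sc5d was the gene that was higher (0.34 and 0.12, fitted at 0.23 ± 0.05). Mvk (-0.61 ± 0.18), Sqle (-0.51 ± 0.15) and Tm7sf2 (-0.47 ± 0.15) were not called. Insig1 had -0.29 and -1.36 and was not called (-0.82 ± 0.33). No gene kept its call without either array, which leaves a single array in this comparison. The count of 8 was 22 when the GH arrays were fitted apart, where both arrays hold 1 GH pool. In that fit 46.5% of all tested probes were called.

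In the single pool given 2 injections 10 genes were lower and 3 higher than in hypophysectomised males, against 15.8% and 15% of tested probes (30.8% in all), with a median of -0.10. Pmvk had -0.67 and -0.75 on the arrays, fitted at -0.71 ± 0.10 (1.64-fold lower, adjusted p = 0.00111). Mvk had -0.55 and -0.84 (-0.70 ± 0.18), and Dhcr7 -0.53 and -0.71 (-0.62 ± 0.16). These enzymes were below 0 on both arrays. Sc4mol (-0.51 ± 0.12), Acat2 (-0.42 ± 0.11), Scarb1 (-0.41 ± 0.09), Fdft1 (-0.40 ± 0.12), Ebp (-0.36 ± 0.08), Scap (-0.31 ± 0.06) and Soat2 (-0.30 ± 0.05) were also lower. The brightest probe of Insig2 was not called (-0.69 ± 0.24, adjusted p = 0.0649), while its dimmer probe was (-0.81, adjusted p = 0.00282). Stard4 had the highest ratio, with 0.89 and 0.99 on the arrays, fitted at 0.94 ± 0.18 (1.92-fold, adjusted p = 0.00497). Fdps had 0.55 and 0.59 (0.57 ± 0.16, adjusted p = 0.026), and Abca1 0.24 and 0.58 (0.41 ± 0.13). Stard4 and Fdps had both fallen with hypophysectomy in males, a comparison that shares the hypophysectomised male RNA. Dhcr7, which had fallen with hypophysectomy by 1.24 ± 0.16, was lower again in this pool. Most of the 13 calls were lost without either array, which leaves a single array in this comparison. The count was 22 when the GH arrays were fitted apart, where 52.3% of all tested probes were called.

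Both GH comparisons share the hypophysectomised male RNA as the reference. Acat2, Pmvk, Sc4mol, Scap and Scarb1 were lower in both. The share of all tested probes lower in both was not counted, so this overlap has no background beside it. Set directly against each other in the fit, the 2 GH pools differed past the threshold for 4 genes, 2 higher and 2 lower after 2 injections, against 5.56% and 4.82% of tested probes (10.4% in all). Hmgcs1 was 0.95 higher after 2 injections between the arrays of replicate 1 and 0.95 between those of replicate 2 (0.95 ± 0.23, adjusted p = 0.039). Sqle was 1.05 and 0.85 higher (0.95 ± 0.22, adjusted p = 0.0305). The 2 replicates agreed closely in these differences. Deviations of same-numbered arrays correlated at 0.74 between the 2 GH comparisons, which share the reference RNA, and the SE does not take this in. All 4 arrays were also on 1 slide, and the source of the closeness was not tested. With 1 pool of each GH group these differences are between 2 pools, and a difference between the treatments was not tested. Sc5d was lower by log2 differences of -0.33 and -0.33 (-0.33 ± 0.07) and Soat2 by -0.25 and -0.32 (-0.29 ± 0.07). Idi1 (0.87 and 0.84, fitted at 0.86 ± 0.27) and Insig1 (0.97 and 0.93, fitted at 0.95 ± 0.47) were not called. Leaving out any of the 4 arrays, or the dye term, ended all 4 calls. Without the dye term 4.69% of all tested probes were called. Fitting the GH arrays apart called 18 genes, beside 40.8% of all tested probes.

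**Figure D5:**
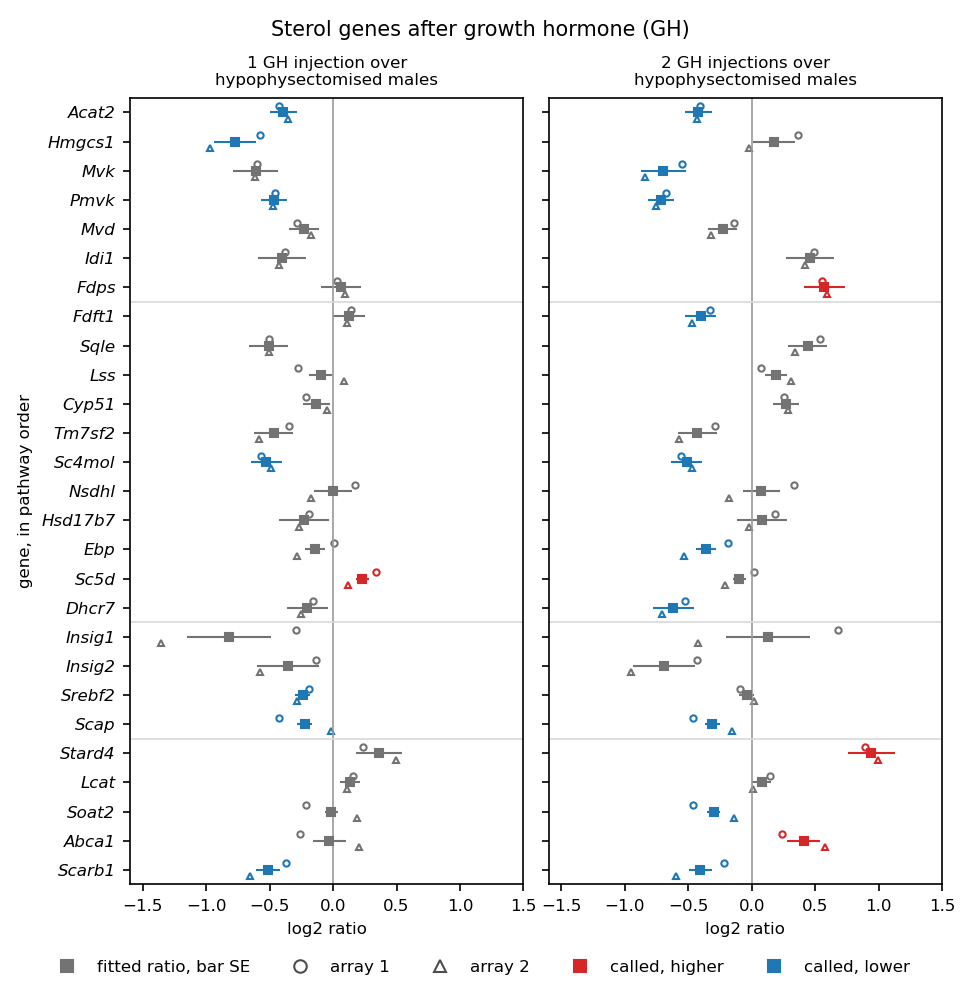
Log2 ratios (horizontal axis) of the 27 genes after 1 or 2 GH injections over hypophysectomised males, with fitted values and SE (squares) and the arrays of replicate 1 (circles) and 2 (triangles). Hmgcs1 and Sqle are below 0 after 1 injection and at 0.17 and 0.44 after 2, while Pmvk, Acat2 and Sc4mol are below 0 in both.

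Genes around the pathway were read from lists, beside the 37.5% of all tested probes called in hypophysectomised over intact males (19% rose and 18.5% fell) and the 36.3% in females (17.9% and 18.5%). Of the 6 genes found for the non-sterol isoprenoid branch, 1 rose and 2 fell in males and 0 rose and 1 fell in females, with no value beyond 0.29 in size in either. Of the sterol transport and LXR target genes tested, 3 of 11 rose and 3 fell in males, and 3 of 12 rose and 5 fell in females. In these, Abcg5, a subunit of a transporter that secretes sterols into bile, fell in males (-1.90 ± 0.46) and in females (-2.24 ± 0.46), and the efflux transporter Abcg1 rose by 0.78 ± 0.07 and 0.80 ± 0.07.

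Fatty acid synthesis, the branch driven mainly by another SREBP, was read beside the sterol genes. Of its 13 genes, 6 fell and 1 rose with hypophysectomy in males and 10 fell and 0 rose in females, with medians of -1.49 and -1.63, against 18.5% of all tested probes that fell in each sex. The malic enzyme Me1 fell in both (-2.63 ± 0.12 and -2.82 ± 0.12). The desaturase Scd2 fell by 2.93 ± 0.26 in females and rose by 1.01 ± 0.26 in males, and the difference between the sexes was 3.97 ± 0.26 (adjusted p = 5.31e-05).

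Markers of other cells moved with the same comparisons. Of 5 erythroid markers listed, 2 were found (Hbb and Alas2), and both fell with hypophysectomy (-3.69 ± 0.24 and -2.07 ± 0.08 in males, -1.48 ± 0.24 and -0.96 ± 0.08 in females) and were higher in both GH pools. Their summed level (log2 intensity) was 12.8 to 13.4 in intact females, 11.4 to 12.0 in hypophysectomised females, 12.9 to 13.8 in intact males and 9.08 to 10.6 in hypophysectomised males. Of 7 bile duct markers 4 were found, of which 2 of 3 tested rose in each sex and Cftr was not above background in intact rats. Their summed level was 10.8 to 11.2 in intact rats of both sexes and 12.4 to 12.8 in hypophysectomised ones. Lymphocyte markers rose for 5 of 9 in males and 4 of 9 in females, endothelial ones for 5 of 7 and 4 of 7, and macrophage ones for 2 of 8 and 3 of 8, against 19% and 17.9% of all tested probes. Of 8 stellate cell markers 3 rose and 2 fell in males and 1 rose and 2 fell in females, and of the 11 hepatocyte markers 3 rose and 4 fell in males and 2 rose and 3 fell in females.

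Markers also moved in the other comparisons. In intact males over intact females, 5 of 8 macrophage markers, 3 of 9 lymphocyte markers and 2 of 7 endothelial markers were lower, against 7.42% of all tested probes, and 1 macrophage marker was higher. The summed level of the macrophage markers was 15.8 to 15.9 in intact males and 15.9 to 16.0 in intact females. In hypophysectomised males over hypophysectomised females both erythroid markers and 2 of 8 macrophage markers were lower, against 0.419%. In the pool given 1 GH injection 5 of 8 macrophage markers were higher and 1 lower, against 7.49% and 6.79%, and in the pool given 2 injections 0 of 8 were called (30.8% of all tested probes), with 1 at an unadjusted p under 0.05 in limma. Of 10 markers of pancreas and fat 7 were found: in intact males over intact females 2 of 4 tested were higher and 1 lower, and with hypophysectomy 1 of 2 tested fell in males and 2 of 5 fell and 1 rose in females. The part of these cells in the values of the 27 genes was not tested.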

How the data were processed

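Liver RNA was compared on 12 arrays read in 2 colours. Per the file headers, the deposited scanner files hold mean and background intensity of 45018 spots, read with Agilent Feature Extraction 9.1.3.1, with processed signals, the log10 ratio of red to green and flags. The deposited series values are the log2 ratio of channel 2 to channel 1 of those processed signals, as found from the values (all within 0.011).

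Intensities were corrected with normexp (offset 50) and each array was normalized by loess, using limma 3.58.1 (R 4.3.3, with version 1.17.8 of data.table). All ratios were expressed as channel 2 over channel 1, using the labelled dyes, and averaged over the spots of a probe, leaving out 1639 control spots and outlying spots. On 1 array with a single injection the treatment label omits GH, so the title was followed. A probe was tested where at least 1 RNA was well above background on both arrays (29008 of 41012 probes in at least 1 comparison). One linear model per probe was fitted over all 12 arrays, with 6 comparison coefficients and a dye term (residual df 5, prior df 3.08, prior SD 0.101). P-values were adjusted by Benjamini-Hochberg over all probes tested in a comparison. The comparisons share 1 estimate of the spread, which joins arrays of the same GH pool to arrays of different pools. The script was tested on simulated data.

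Per the file headers, the 4 GH arrays were on slide 1, and replicates 1 and 2 of the other comparisons on slides 2 and 3. The 27 genes, the other lists and the tests were chosen with earlier results of these data known. Every gene of the pathway list is named, and of other lists up to 3 called genes of the largest change. The list on SREBP processing and sterol-regulated degradation is not reported here. The 9 motifs were chosen after the array values were seen, and the window was shortened to 250 bases after a search of 300. Alternatives covered background, normalization, filter, dye, probe choice, slide, replicate block and left-out arrays.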

Additional observations from a re-analysis of the deposited data

Results flagged for a closer look

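The change with hypophysectomy differed between the sexes, by the test of the difference itself, for 10 of the 27 genes. Of all tested probes, 6.48% were called positive and 7.01% negative (13.5% in all). The difference, males minus females, was 0.45 for Acat2, 0.45 for Pmvk, 0.58 for Mvd, 0.82 for Idi1, 0.71 for Sqle, 0.39 for Cyp51, 1.33 for Tm7sf2, 0.31 for Ebp, 0.50 for Sc5d and 1.22 for Insig1 on the log2 scale. Each was positive within slide 2 and within slide 3. The test took the arrays as independent, though deviations of same-numbered arrays correlated, so its p-values can be too small. The count was 5 without the dye term and 5 without the GH arrays, beside 7.92% and 8.47% of all tested probes. Most of the 10 calls were lost without either array of intact males over intact females.

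The pool given 2 GH injections differed from the pool given 1 past the threshold of the fit for 4 of the 27 genes, against 10.4% of all tested probes. The differences were 0.95 for Hmgcs1, 0.95 for Sqle, -0.33 for Sc5d and -0.29 for Soat2. All 4 arrays behind them were on 1 slide, with 1 pool a group, so they describe these pools and not the treatments. Leaving out any of the 4 arrays, or the dye term, ended all 4 calls.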

How the results depend on the processing

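None of the 78 called values changed sign in any of the alternatives run for it, and 25 kept their call in every one except median centring, which ended all 78. Median centring in place of loess called 0 genes in every comparison. The median of all probes then lay at -0.13 in intact males over intact females, 0.10 in hypophysectomised over intact males, -0.11 in hypophysectomised males over females and after 2 injections, and -0.13 for 2 injections minus 1; the cause was not tested. Without a dye term the count was 5 for intact males over intact females, 3 after 1 injection, 8 after 2, 5 for the sex difference in the change and 0 for 2 injections minus 1. Of all tested probes, 10.1%, 7.99%, 23.1%, 7.92% and 4.69% were then called. With the GH arrays fitted apart the counts were, in the same order, 3, 22, 22, 5 and 18. Of all tested probes, 11%, 46.5%, 52.3%, 8.47% and 40.8% were then called. With an offset of 10 the count was 5 after 1 injection and 2 for 2 injections minus 1, beside 12.3% and 6.97% of all tested probes. With the scanner software's processed signals and with the value table it was 4 and 2, beside 11.7% and 9.75% or 9.78%.

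Leaving out a replicate leaves 1 array in each comparison, so these counts are not given. Most calls were then lost in intact males over intact females and after 2 injections, and all after 1 injection and for 2 injections minus 1. Most were kept for hypophysectomy in males and in females. For the sex difference 4 arrays were left out together and 1 residual degree of freedom remained. Stard4 in the sex difference (-0.14, not called) was -0.58 without replicate 1 and reversed, at 0.30, without replicate 2. Leaving out single arrays was an alternative chosen after seeing the data, as was slide as a fixed term. Most calls of the sex difference were then lost for some arrays, and all calls for 2 injections minus 1 for any array. The replicate block gave 6 for the sex difference, beside 11.6% of all tested probes, and changed no other count by over 1.5 times. Same-numbered arrays are not paired by the labels: their deviations correlated at -0.68 to 0.86 over 15 pairs of comparisons, 0.74 to 0.86 in the 2 pairs with hypophysectomised male RNA on the same side and -0.68 to -0.32 in the 4 with it on opposite sides.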

Other observations

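Hypophysectomised male RNA was on 8 arrays, and the level of Insig1 in it ran from 14.4 to 15.5 (log2 intensity, median 15.1), a wider range than the 14.3 to 14.8 of Tm7sf2 in the same RNA. In intact females Insig1 ran from 16.2 to 16.6 on 4 arrays. The dye coefficient was called for 3605 of 29008 probes and for 4 of the 27 genes, Lss (0.20), Sc5d (-0.13), Scap (0.15) and Soat2 (0.17).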
